A study of Mus musculus with 6 samples.

Results

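The enteric transmitter and neuropeptide genes described here are Chat, Slc18a3, Nos1, Vip, Tac1, Calb2, Nmu, Npy, Penk and Th. They were chosen by name, as the array rows annotated with that single gene symbol, and all 10 were measured, among 19938 genes in all. Each had 1 row. RNA of the colon of 3 Ihh mutant mice (VilCre;Ihhflox/flox) and 3 control littermates, labelled wild type, was hybridised to 6 Affymetrix Mouse Gene 1.0 ST arrays, with no pooling of mice, and each mutant shares a litter with the control of the same number. Ihh encodes the secreted signal Indian hedgehog, and the villin promoter that drives the Cre recombinase is active in intestinal epithelium. The labels do not say whether controls carried floxed alleles or Cre, nor which stretch of colon was taken. The series text gives postnatal day 12 for the harvest, whereas the growth protocol gives a range that begins at day 9.

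Neurons of the enteric nervous system lie in ganglia between and beneath the muscle layers of the gut wall, and subclasses are told apart by the transmitters and peptides they make. Excitatory motor neurons release acetylcholine and tachykinins, inhibitory motor neurons release nitric oxide and vasoactive intestinal peptide, and sensory and secretomotor neurons carry further peptides. Some of these genes are also used outside neurons, Tac1 in hormone cells of the epithelium and Calb2 in mesothelium. The comparison asks which transmitter classes differed in young colon when Ihh was targeted for deletion in the epithelium.

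All levels are the authors' deposited RMA values in log2 units, and a change is mutant minus control. Array medians lay between 7.10 and 7.14. Ptch1, a receptor and target gene of the hedgehog pathway, was 9.06, 8.94 and 9.01 in mutants 1 to 3, against 10.32, 10.46 and 10.54 in controls 1 to 3. Ihh itself was 8.37, 8.22 and 8.22 in mutants, against 8.50, 8.54 and 8.68 in controls, and did not pass the test (limma adjusted p = 0.139). Whether its row holds probes outside the deleted part was not tested, nor was how complete the deletion was. Acta2, an actin of smooth muscle, lay between 13.5 and 13.8 and Krt8, a keratin of simple epithelia, between 13.1 and 13.4 over the 6 arrays, so both the muscle and the epithelium of a gut wall were sampled.

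Of the 10 genes, Nmu and Calb2 fell, Tac1 rose, and 7 did not pass the test. The test was limma with the litter as a block, with Benjamini-Hochberg adjustment over all genes and an adjusted p under 0.05. Over all genes, 3.77% passed it, 1.66% as higher and 2.11% as lower. The genes were chosen with earlier results of these data known, so the share among them is a description. The median change of the 10 was -0.08, against 0.01 over all genes tested. At an unadjusted p under 0.05 in the same limma fit, 1406 of all 19938 genes were higher and 1602 lower. The counts given below for gene lists at that threshold are to be set beside these. Mutant and control values did not overlap for 4 of the 10 genes, with all mutants lower for 3 and higher for 1; over all genes, 19.8% did not overlap, 9.78% with all mutants lower and 10% with all mutants higher.

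**Figure D1:**
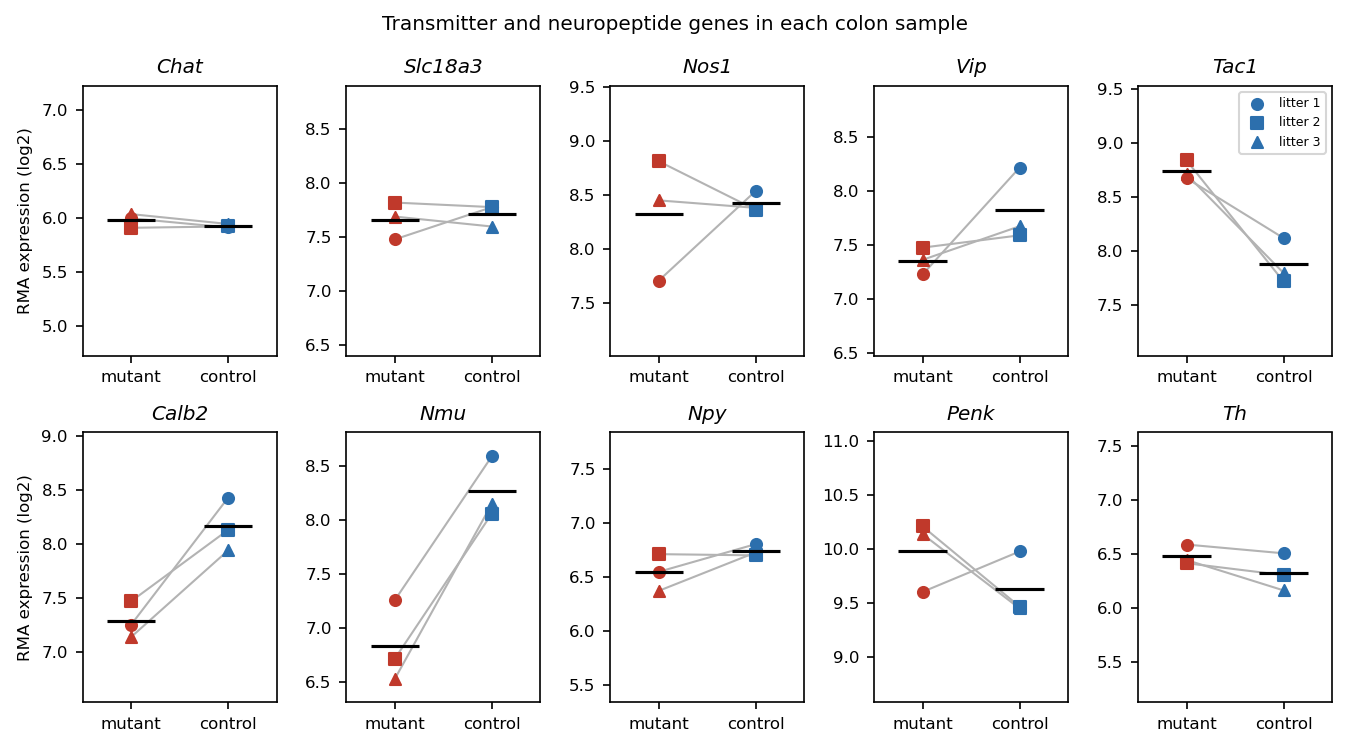
RMA expression (log2) of each of the 10 genes in mutant (red) and control (blue) colon; marker shape gives the litter, grey lines join littermates, black bars are group means (n = 3), and every panel spans the same range of log2 units. Nmu and Calb2 are lower in all 3 mutants and Tac1 is higher in all 3, while Nos1 and Penk run in different directions in different litters.

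Nmu, the gene of neuromedin U, a peptide of enteric neurons that contracts smooth muscle and acts on innate lymphoid cells through the receptor Nmur1, showed the largest change of the 10. It was 7.26, 6.72 and 6.53 in mutants 1 to 3, against 8.59, 8.06 and 8.15 in controls 1 to 3. Every mutant lay more than a log2 unit below its littermate, and the highest mutant stayed below the lowest control. The mean was 6.83 ± 0.379 in mutants and 8.27 ± 0.284 in controls (SD, n = 3 each), a fall of 1.43 ± 0.09 (standard error) that is 2.70-fold, with limma adjusted p = 0.000493. The change was -1.33, -1.34 and -1.62 in litters 1, 2 and 3, so it varied less between litters than the level did between mutants. By size it was number 10 among the 421 genes that fell. Its receptors were not shown to change, with Nmur1 at -0.16 ± 0.09 (adjusted p = 0.515) and Nmur2, which was among the dimmest 30% of genes, at -0.07 ± 0.13 (adjusted p = 0.895).

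Calb2 encodes calretinin, a calcium-buffering protein and not a transmitter, which marks a large class of enteric neurons. It was 7.25, 7.46 and 7.13 in mutants 1 to 3, against 8.42, 8.13 and 7.94 in controls 1 to 3. The groups did not overlap. The mean was 7.28 ± 0.168 in mutants and 8.16 ± 0.246 in controls (SD, n = 3 each), a 1.84-fold fall with limma adjusted p = 0.00649. The change was -1.18, -0.66 and -0.80 in litters 1, 2 and 3. Calretinin also marks mesothelium, the outer lining of the gut. Of 13 measured mesothelium genes, 2 rose (Krt18 and Upk1b), 1 fell (Efemp1, a fibulin that fibroblasts also make) and 10 did not pass, and their median change was 0.13. The call on Upk1b was lost without litter 2 or 3 (adjusted p = 0.0707 and 0.0561) and without the litter block (0.236). The mean level of these 13 genes was 8.22 to 8.53 in mutants and 8.12 to 8.48 in controls, and the keratins of that list, Krt8, Krt18 and Krt19, are shared with the epithelium. Msln, mesothelin, stood at 0.19 ± 0.09 (adjusted p = 0.374). The part of mesothelium in the fall of Calb2 was not tested. None of 7 other calcium-binding neuronal proteins passed (limma, adjusted; 0 at an unadjusted p under 0.05), and their changes ranged from -0.11 to 0.18. The Calb1 row and that of Pvalb, the gene at 0.18, were among the dimmest 30% of genes.

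Tac1, the precursor of substance P and neurokinin A, which excite gut muscle, was the gene that rose. It was 8.67, 8.84 and 8.71 in mutants 1 to 3, against 8.12, 7.72 and 7.80 in controls 1 to 3. All mutants lay above all controls, and the mutants lay closer together than the controls. The mean was 8.74 ± 0.0864 in mutants and 7.88 ± 0.213 in controls (SD, n = 3 each), which is 1.82-fold higher in mutants with limma adjusted p = 0.00820.

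The main tachykinin receptor of gut smooth muscle moved the other way. Tacr2, the neurokinin A receptor, was 7.76, 7.88 and 7.43 in mutants 1 to 3, against 8.59, 8.49 and 8.44 in controls 1 to 3. It fell 1.76-fold (change -0.82 ± 0.10, limma adjusted p = 0.00528), and its groups did not overlap. Smooth muscle genes moved with it, since 7 of 11 fell and 0 rose, with a median change of -0.56. The count was 1 without litter 1, where the 6 genes that lost their call stood between -0.71 and -0.37. It was 4 without the litter block, which leaves the changes as they are and lost Des, Cald1 and Synpo2 (adjusted p between 0.0565 and 0.104). It was 1 with arrays centred on pan-neuronal genes, where the 6 without a call still stood between -0.64 and -0.43 and every gene had the same standard error of 0.197. The part of the muscle genes in the fall of Tacr2 was not tested. Tacr1, the substance P receptor, stood at -0.04 ± 0.08 (adjusted p = 0.898) and Tacr3, a receptor of neurokinin B, whose row was among the dimmest 30% of genes, at 0.01 ± 0.09 (adjusted p = 0.970).

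Enterochromaffin cells, the serotonin cells of the epithelium, also make tachykinins in mice, and several hormone cell genes rose beside Tac1. Slc18a1, the vesicular monoamine transporter of those cells, was 7.96, 7.84 and 7.70 in mutants 1 to 3, against 6.87, 6.98 and 7.10 in controls 1 to 3. This 1.80-fold rise passed the test (limma adjusted p = 0.00649). Among 17 enteroendocrine genes there were 6 rises and 0 falls, with a median change of 0.29. The genes that rose were Gcg, the proglucagon gene of L cells (1.99 ± 0.11, limma adjusted p = 0.000459), Cck, cholecystokinin (1.39 ± 0.08, 0.000493), Insl5 (0.94), Nts, neurotensin (0.87), Pcsk1 (0.77) and Pyy, peptide YY (0.68), none of which is a defining gene of enterochromaffin cells. The call on Nts was lost without the litter block (adjusted p = 0.0837). The islet and hormone cell factor Isl1 fell without litter 1 (-0.60, adjusted p = 0.0178) and with array weights (-0.53, adjusted p = 0.0123). The mean level of these 17 genes was 8.06 to 8.24 in mutants and 7.69 to 7.75 in controls. The serotonin enzyme gene Tph1 was higher in the mutant of each litter, by 0.29 ± 0.09 on average, and did not pass (adjusted p = 0.153). The granule protein genes Chga and Chgb stood at 0.17 ± 0.09 and 0.38 ± 0.09 and did not pass (limma adjusted p = 0.446 and 0.0808). For Chgb every mutant lay above every control. The part of these cells in the rise of Tac1 was not tested.

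**Figure D2:**
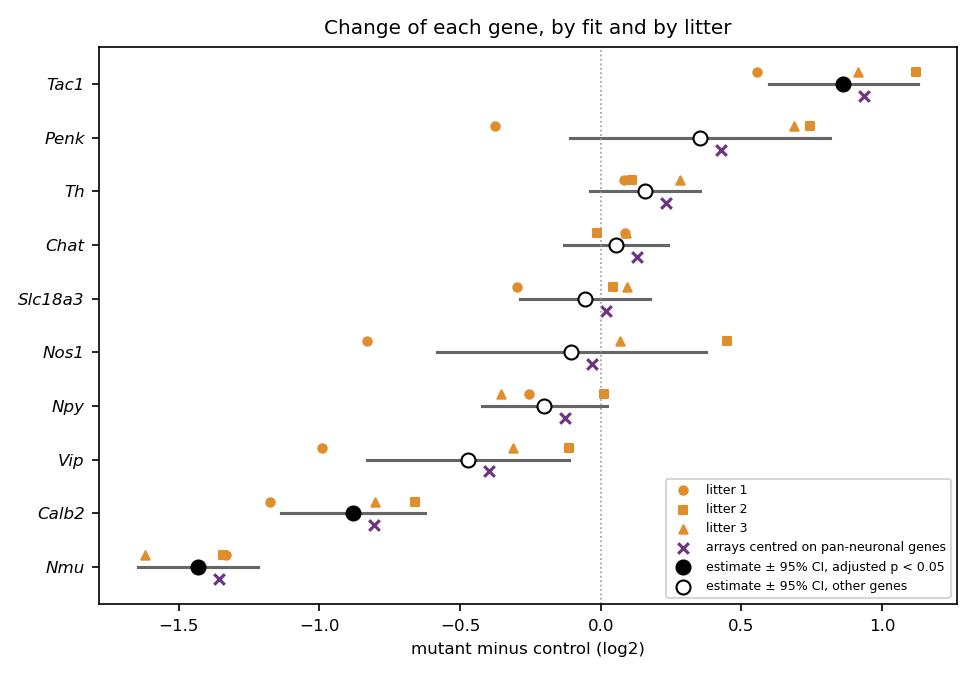
Change of each of the 10 genes (mutant minus control, log2) with its 95% confidence interval in the limma fit (circles, filled where the adjusted p is under 0.05), in each litter (orange) and with every array centred on its mean of 21 pan-neuronal genes (crosses). Nmu, Calb2 and Tac1 keep their distance from 0 in each litter and with the centring, and the litters lie on both sides of 0 for Nos1, Penk, Slc18a3, Chat and Npy.

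Vip, the gene of vasoactive intestinal peptide, which relaxes gut muscle and drives secretion, was 7.23, 7.47 and 7.36 in mutants 1 to 3, against 8.22, 7.59 and 7.67 in controls 1 to 3. The groups did not overlap, but control 1 stood well above the other controls, and the gap in litter 2 was small. The mean was 7.35 ± 0.124 in mutants and 7.82 ± 0.341 in controls (SD, n = 3 each). The change of -0.47 ± 0.16 did not pass the test (limma adjusted p = 0.179). It was -0.99, -0.11 and -0.31 in litters 1, 2 and 3. Without litter 2, where the prior added 18.3 degrees of freedom against 5.85 with all litters, it was -0.65 and passed (adjusted p = 0.0137). Without litter 1, where the prior added 5.12, it was -0.21 (adjusted p = 0.302). Of its receptors, Vipr1, which gut epithelium uses, rose by 0.44 ± 0.08 (adjusted p = 0.0262), with 9.02, 8.97 and 8.87 in mutants 1 to 3, against 8.52, 8.52 and 8.49 in controls 1 to 3. That call was lost when any 1 litter was left out (adjusted p between 0.0519 and 0.0696) and with the mean of its rows (0.0575). Vipr2, the receptor of muscle, stood at 0.15 ± 0.13 (adjusted p = 0.684).

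Upstream sequence was examined for the members that moved or whose groups did not overlap. The table of RefSeq promoters, on GRCm38.p6, held 8 of the 10 genes, without Calb2 and Penk. The 250 bases before the annotated start of Nmu, Tac1 and Vip are given 5′ to 3′ on the gene's own strand. Capitals mark the half-site of the cAMP response element, TGACG or CGTCA on the other strand, and the TATA box TATAAA on the gene's strand.
Nmu, chr5:76363778-76364027, minus strand: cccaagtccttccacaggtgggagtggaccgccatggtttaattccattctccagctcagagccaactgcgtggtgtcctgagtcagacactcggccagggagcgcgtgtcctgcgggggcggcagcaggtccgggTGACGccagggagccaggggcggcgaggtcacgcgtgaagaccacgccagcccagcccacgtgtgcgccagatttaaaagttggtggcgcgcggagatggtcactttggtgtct
Tac1, chr6:7554811-7555060, plus strand: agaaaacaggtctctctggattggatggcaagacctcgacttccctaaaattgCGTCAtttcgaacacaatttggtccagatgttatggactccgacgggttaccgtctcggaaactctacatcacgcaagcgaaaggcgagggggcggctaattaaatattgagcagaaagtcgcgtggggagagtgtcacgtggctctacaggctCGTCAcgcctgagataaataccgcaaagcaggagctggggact
Vip, chr10:5638968-5639217, plus strand: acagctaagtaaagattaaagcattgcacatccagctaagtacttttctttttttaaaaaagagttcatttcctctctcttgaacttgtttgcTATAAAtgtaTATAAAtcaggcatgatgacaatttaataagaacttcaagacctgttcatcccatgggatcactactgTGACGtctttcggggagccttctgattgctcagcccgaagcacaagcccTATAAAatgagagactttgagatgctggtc

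The half-site begins 114 bases before the start in Nmu, 197 and 43 bases before it in Tac1, and 79 bases before it in Vip. Of the 8 promoters 7 hold it, all but that of Npy, against 17.9% of 32526 promoters of the same length. The half-site holds the pair CG, and the share among promoters of like GC content was not computed. GC content ran from 38.4% in Vip to 69.2% in Npy over the 8, with a median of 52.4% over all promoters. In Th the matches of both strands overlap, from 45 to 38 bases before the start. The TATA box occurs in 1 of the 8, Vip, with the match nearest the start 30 to 25 bases before it, and in 7.55% of all promoters. The core of Gli sites, CCACCC on either strand, Gli proteins being the transcription factors of the hedgehog pathway, occurs in 2 of the 8, Npy and Th, and in 28.1% of all. The half-site is thus shared by genes that fell, rose and did not pass.

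None of the cholinergic genes passed the test. Chat, the enzyme that makes acetylcholine, was 6.00, 5.91 and 6.04 in mutants 1 to 3, against 5.91, 5.92 and 5.95 in controls 1 to 3. Its row was among the dimmest 30% of genes, so little can be read from its small differences. Slc18a3, which loads acetylcholine into vesicles and lies inside the Chat gene in RefSeq, was 7.48, 7.82 and 7.69 in mutants 1 to 3, against 7.78, 7.78 and 7.60 in controls 1 to 3. The groups overlapped, and mutant 1 was the lowest sample. The 95% confidence interval of the change was -0.13 to 0.24 for Chat and -0.29 to 0.18 for Slc18a3 (limma adjusted p = 0.854 and 0.889). Of 12 further genes of cholinergic transmission 0 passed in either direction (limma; 3 were lower and 0 higher at an unadjusted p under 0.05), with a median change of -0.13. The nearest was Bche, butyrylcholinesterase, at -0.41 ± 0.10 (adjusted p = 0.0629), with every mutant below every control. It passed under 6 of the 13 alternatives, among them the fits without the litter block (0.0409) and without litter 2 (0.0303). The muscarinic receptor gene Chrm2 (-0.30, adjusted p = 0.128) and the nicotinic subunit gene Chrna5 (-0.29, adjusted p = 0.272), whose row was among the dimmest 30% of genes, were also lower in all mutants. The median of the 12 genes was -0.38, -0.01 and 0.06 in litters 1, 2 and 3. Slc5a7, the choline transporter of nerve endings, stood at 0.10 ± 0.10 and Ache, acetylcholinesterase, at -0.15 ± 0.13.

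Nos1, the neuronal nitric oxide synthase of inhibitory motor neurons, varied more among mutants than any other of the 10 genes. It was 7.71, 8.81 and 8.45 in mutants 1 to 3, against 8.54, 8.37 and 8.38 in controls 1 to 3. Mutant 1 lay below all controls and mutant 2 above them. The change was -0.83, 0.45 and 0.07 in litters 1, 2 and 3, and the interval of the mean change, -0.58 to 0.37, was the widest of the 10 (adjusted p = 0.898). Without litter 1 the change was 0.26 (adjusted p = 0.309). Downstream, the subunits of the nitric oxide receptor guanylate cyclase stood at 0.04 ± 0.08 for Gucy1a1 and -0.04 ± 0.08 for Gucy1b1. Of 10 genes of nitric oxide signalling, 1 fell (limma, with 0 higher and 4 lower at an unadjusted p under 0.05). That was Prkg1, the cGMP-dependent kinase of smooth muscle, at 8.40, 8.44 and 8.35 in mutants 1 to 3, against 8.77, 8.83 and 8.95 in controls 1 to 3 (change -0.46 ± 0.09, limma adjusted p = 0.0308, and 0.179 without litter 3). Without litter 1 the cyclase subunit gene Gucy1a2 passed as well, at -0.58 (adjusted p = 0.0291), as it did with array weights (-0.49, adjusted p = 0.0426). Every mutant lay below every control for Mrvi1 (-0.28, limma adjusted p = 0.148) and Pde5a (-0.23, 0.242), which did not pass.

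Penk, the precursor of the enkephalins, which act on opioid receptors, was 9.60, 10.21 and 10.13 in mutants 1 to 3, against 9.97, 9.46 and 9.45 in controls 1 to 3. The mutant was higher in litters 2 and 3, by 0.74 and 0.69, and lower in litter 1, by -0.37. Over the 3 litters the change was 0.35 ± 0.20 and did not pass (limma adjusted p = 0.491); without litter 1 it was 0.72 and passed (adjusted p = 0.0112). The opioid receptor genes Oprm1, Oprd1 and Oprk1 stood at 0.05, -0.01 and 0.00, with adjusted p between 0.891 and 0.995. Fibroblasts and T cells can also make Penk. Of 12 fibroblast genes 1 rose (Mgp) and 3 fell (Mfap5, Cd34 and Pdgfra), and of 7 T cell genes 1 fell (Cd4, at -0.43 ± 0.09) and 0 rose. The calls on Cd34, Pdgfra and Cd4 were lost without litter 2 or litter 3. The part of these cells in the values of Penk was not tested.

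Npy, the gene of neuropeptide Y, which inhibits secretion, was 6.55, 6.71 and 6.37 in mutants 1 to 3, against 6.80, 6.70 and 6.73 in controls 1 to 3. The groups overlapped only in mutant 2, and the change of -0.20 ± 0.10 did not pass (adjusted p = 0.396). Of its listed receptor genes, Npy1r and Npy4r stood at -0.28 ± 0.08 and -0.36 ± 0.12 and did not pass either (adjusted p = 0.126 and 0.168), although without litter 3 Npy4r was at -0.53 and passed (adjusted p = 0.0426). Npy2r and Npy5r, whose rows were among the dimmest 30% of genes, stood at -0.12 ± 0.09 and -0.07 ± 0.09 (limma adjusted p = 0.663 and 0.823). Th, which catalyses the first step of catecholamine synthesis, was 6.59, 6.42 and 6.45 in mutants 1 to 3, against 6.51, 6.31 and 6.17 in controls 1 to 3. The mutant was higher in each litter, by 0.08, 0.11 and 0.28, and the groups overlapped (adjusted p = 0.462). The next enzymes of that pathway, Ddc and Dbh, stood at -0.20 ± 0.11 and -0.20 ± 0.09 (adjusted p = 0.466 and 0.344), and the Dbh row, like that of Npy1r, was among the dimmest 30% of genes. Of 10 catecholamine genes 1 rose, Slc18a1, and 0 fell; without litter 2 the monoamine oxidase gene Maoa rose too (0.46, adjusted p = 0.0462). Of 10 markers of adrenal medulla and sympathetic neurons 1 rose, again Slc18a1, and 0 fell.

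Among the listed genes besides the members, the peptide genes that passed were those given above as hormone cell genes. Some of these, such as Cck and Nts, can also be made by neurons. Peptide genes outside the lists were not looked at. Of 13 further gut neuropeptide genes 0 rose and 0 fell (limma; 1 higher and 1 lower at an unadjusted p under 0.05). The lowest of them was Calcb, a calcitonin gene-related peptide, at 6.45, 6.26 and 6.13 in mutants 1 to 3, against 6.75, 6.60 and 6.60 in controls 1 to 3 (change -0.37 ± 0.08, adjusted p = 0.0529). Calcb passed without the dimmest 30% of genes (adjusted p = 0.0362) and with array weights (0.0194), and under no other alternative. Without litter 2 Grp passed, at -0.55 (adjusted p = 0.0250). In this list of 13, the Adcyap1, Pdyn, Tac2, Nxph2, Ucn3, Nmb and Pomc rows were among the dimmest 30% of genes. Little can be read from their lack of a call. Of 9 genes of neuropeptide processing 1 rose, Pcsk1, a prohormone convertase that hormone cells share with neurons (0.77 ± 0.08, adjusted p = 0.00401). Cpe, the carboxypeptidase that trims peptides, stood at -0.60 ± 0.15 with adjusted p = 0.0875, and passed without litter 2 (-0.78, adjusted p = 0.00297). Over 18 measured receptors, 1 rose (Vipr1), 1 fell (Tacr2) and 16 did not pass, with a median change of -0.01. Of 12 neurotrophic ligands and receptors 0 passed (limma; 1 higher and 3 lower at an unadjusted p under 0.05), and the lowest was Gdnf, the growth factor of enteric neuron precursors, at -0.38 ± 0.09 (adjusted p = 0.0619). Gdnf passed without the dimmest 30% of genes (adjusted p = 0.0440), with array weights (0.0222) and with a trended, robust prior (0.0488), and under no other alternative.

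**Figure D3:**
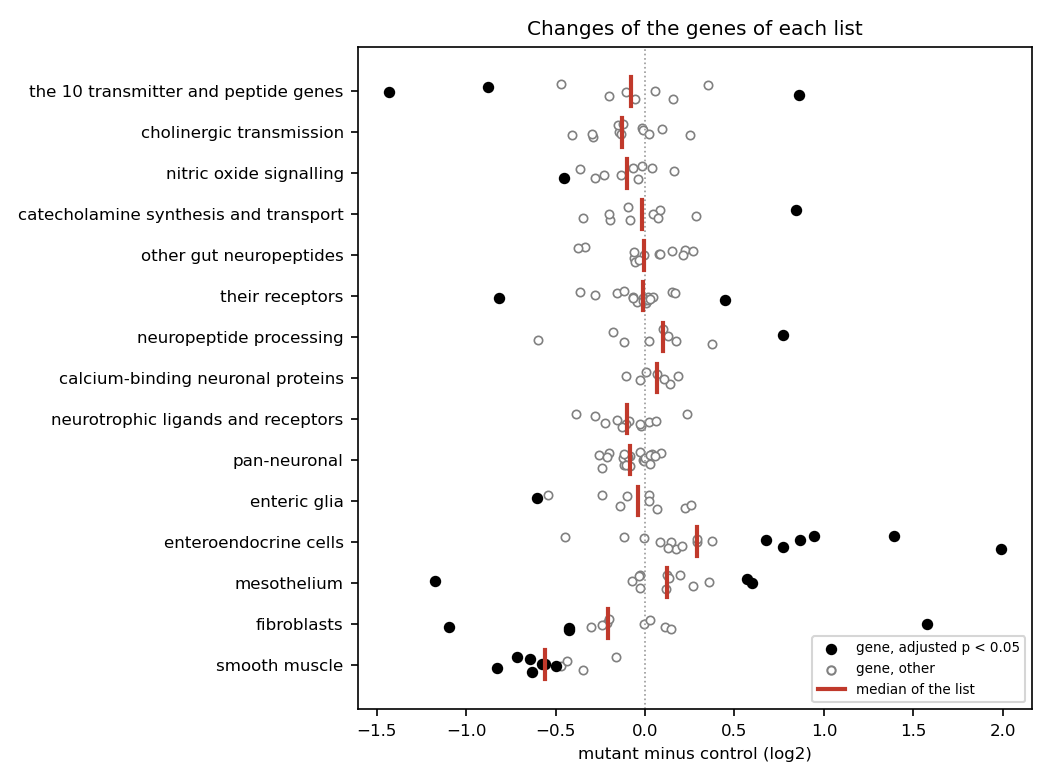
Changes (mutant minus control, log2) of the 10 transmitter and peptide genes and of the genes of 14 other lists, 1 point per gene, filled where the limma adjusted p is under 0.05, with red bars for list medians. No pan-neuronal gene is filled, while 6 enteroendocrine genes lie to the right and 7 smooth muscle genes to the left.

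General neuronal genes gave a level to set beside the transmitter genes. Whether their RNA came from neurons alone was not tested. In whole colon, fewer neurons and less RNA per neuron cannot be told apart. Of 21 pan-neuronal genes 0 passed in either direction (limma; 0 higher and 1 lower at an unadjusted p under 0.05), their changes ranged from -0.26 to 0.09, and their median was -0.09. Their mean level was 7.75, 8.08 and 7.93 in mutants 1 to 3, against 8.12, 7.96 and 7.90 in controls 1 to 3. Mutant 1 was thus the lowest sample and control 1 the highest, and the litter differences of this mean were -0.37, 0.12 and 0.03. Nos1, Slc18a3 and Penk were likewise lower in the mutant in litter 1 and higher in litters 2 and 3. Of 10 enteric glia genes 1 fell, Cryab (-0.61 ± 0.10, adjusted p = 0.0176), which muscle also expresses. The radial glia gene Fabp7 passed without litter 2 (-0.66, adjusted p = 0.0118) and with array weights (-0.62, adjusted p = 0.0339). Cryab did not pass with the pan-neuronal centring, at -0.53 (adjusted p = 0.240).

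When every array was centred on its mean of the 21 pan-neuronal genes, the same 3 transmitter genes passed. Nmu then stood at -1.36 (adjusted p = 2.5e-09), Calb2 at -0.81 (adjusted p = 0.00428) and Tac1 at 0.94 (adjusted p = 0.000306). In that fit every gene had the standard error of 0.197, so its calls follow the size of the change alone. Whether a change in the number of neurons had a part in these 3 calls was not tested. Vip stood at -0.40 in that fit (adjusted p = 0.802). Of the partner genes, Tacr2 (-0.74) and Slc18a1 (0.92) passed, while Vipr1 stood at 0.52 (adjusted p = 0.279), further from 0 than its reported change, and Prkg1 at -0.38 (adjusted p = 0.883).

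**Figure D4:**
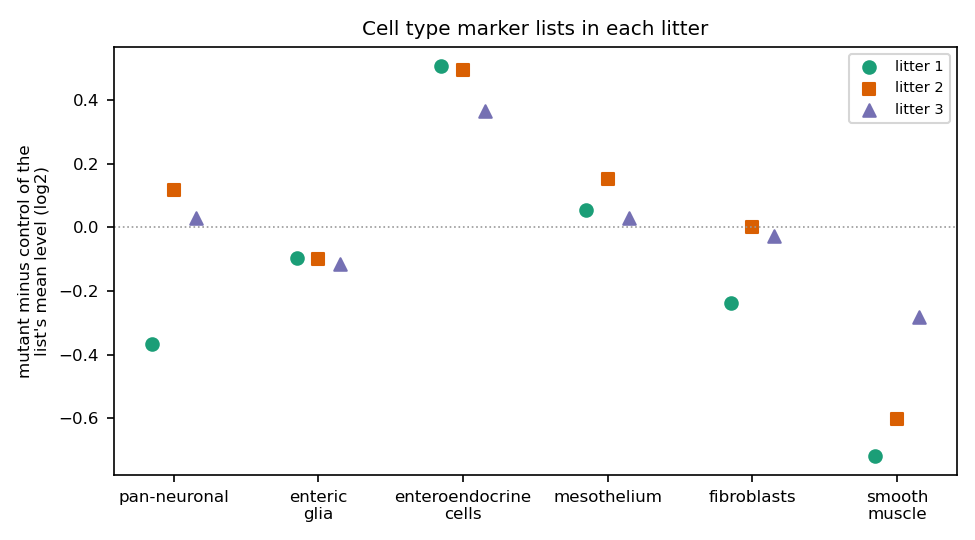
Difference, mutant minus control, of the mean log2 level of each cell type marker list in each of the 3 litters (marker shape and colour). The pan-neuronal mean is lower in the mutant of litter 1 (-0.37) and close to its littermate in litters 2 and 3, enteroendocrine genes are higher and smooth muscle genes lower in all 3 litters.

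The profiles over the 6 arrays were compared with those of the listed genes by Pearson correlation, as a description of arrays that hold both the genotypes and the litters. Nmu was most like Calcb (r = 0.984) and Pdgfra (r = 0.961), and Calb2 was most like Mrvi1 (r = 0.978) and Tacr2 (r = 0.969). Tac1 was most like Mgp, matrix Gla protein (r = 0.994), and Krt18 (r = 0.953). Nos1 was most like the synaptic scaffold gene Dlg4 (r = 0.983) and neuronal tubulin Tubb3 (r = 0.978), and Slc18a3 most like the nicotinic subunit gene Chrna3 (r = 0.943) and Snap25 (r = 0.937). Vip was most like Grp, gastrin-releasing peptide (r = 0.955), and Foxd3 (r = 0.947), whose row was among the dimmest 30% of genes. Chat was most like Maoa (r = 0.980), Npy like Mrvi1 (r = 0.893), Penk like Wt1 (r = 0.873) and Th like Upk1b (r = 0.907). The same 6 arrays gave the calls, so genes with a large gap between mutants and controls are alike by that gap alone. Each gene named was also picked as among the most alike of all listed genes, which by itself gives high values on 6 arrays. The Chat row, like that of Foxd3, was among the dimmest 30% of genes. No conclusion is drawn from these likenesses.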

How the data were processed

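Colon RNA of 3 mutant and 3 control mice was measured on 6 arrays. The deposited table holds log2 expression values that the authors made with RMA, per the submitters' processing notes; version and genome build: not given in the sources used here. RMA gives no detection call, so dim rows cannot be told from background, and precision is limited by 3 arrays per group.

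Of 35557 rows, 21789 had 1 gene symbol in the platform's annotation and entered, with the highest-mean row for each gene, which left 19938 genes. Entrez identifiers matched RefSeq for 21698 rows, and 0 symbols changed. Of 196 genes in 16 further lists, 180 were measured. The members and lists were chosen with earlier results of these data known. Named genes are the members, up to 4 passing genes of each list, and partner genes; others named were picked after their values were seen.

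The test was limma 3.58.1 under R 4.3.3 (lmFit, then eBayes, two-sided, Benjamini-Hochberg over 19938 genes). The litter was a fixed block, since the series' design text names littermates. On simulated data the test recovered 30% of changes of 0.5 log2 units, 98% of changes of 1 and 100% of changes of 1.5 and 2. A change near 0.5 or smaller that did not pass is thus not shown to be absent. Over genes, littermates' deviations from group means correlated by 0.0128, 0.00516 and 0.0613. The fit has 2 residual degrees of freedom per gene, and the prior adds 5.85. Each mouse is a separate animal. All adjusted p values are from this fit unless a setting is named. The 13 alternatives changed the block, prior, weights, filter, scaling or rows, or left out a litter.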

Additional observations from a re-analysis of the deposited data

How the results depend on the processing

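Nmu, Calb2 and Tac1 kept their direction under all 13 alternatives and passed under all but 1 of them. Their changes ranged from -1.48 to -1.34 for Nmu, from -0.99 to -0.73 for Calb2 and from 0.73 to 1.02 for Tac1. The exception was the fit to all 35557 rows of the table, named or not, where the adjusted p was 0.0628, 0.121 and 0.133. That fit has a smaller prior (3.01 degrees of freedom) and called 2 genes, 1 higher and 1 lower, with 0 of the 10 members (0 higher, 0 lower) and 0 of the listed genes, against 751, 3 and 26 in the fit reported. Without the replicate block 3 members passed and 638 genes, and no call on a member changed.

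With array weights 1246 genes passed (512 higher and 734 lower), and with centring on the pan-neuronal list 357 (136 lower, and 13 of the listed genes), where the prior pooled all genes to 1 standard error of 0.197. With a litter left out, 3 to 4 members passed, 1 to 2 of them as higher and 2 to 3 as lower, the fourth being Penk without litter 1 and Vip without litter 2. Such fits called 546 to 798 genes, 247 to 403 as higher and 299 to 484 as lower, and 21 to 26 listed genes. Their prior added 5.12, 18.3 and 11.6 degrees of freedom without litters 1, 2 and 3, against 5.85 in the fit reported. Calls gained or lost in such fits, those without litter 2 above all, thus do not rest on the size of the change alone. Direction reversed, without a call on either side, for some genes with small changes, not all of which are given here. They included Slc18a3 (0.013 with array weights, 0.019 with the pan-neuronal centring, and -0.13 to 0.067 with a litter left out), Nos1 (0.079 with array weights, and -0.38 to 0.26 with a litter left out), Ache (-0.30 to 0.056 with a litter left out), Gucy1b1 (0.036 with the pan-neuronal centring) and Tacr1 (0.031 with that centring, and -0.094 to 0.015 with a litter left out). The cause was not tested. Outside the tests, the Chat, Dbh, Npy1r, Npy2r, Npy5r, Nmur2, Tacr3, Foxd3 and Chrna5 rows were among the dimmest 30% of genes. So were those of Adcyap1, Pdyn, Tac2, Nxph2, Ucn3, Nmb, Pomc, Calb1 and Pvalb, and of some listed genes not named. In addition, 3 arrays per group limit what differences can be shown.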
